A study of Mus musculus with 32 samples.

Results

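Oligodendrocyte progenitor cells (OPCs) from adult and from neonatal mouse cortex were compared by RNA sequencing after both had been kept in vehicle. The comparison covers every library labelled DMSO, that is 9 of the 32 libraries of the series: 4 from adult cells and 5 from neonatal cells. The adult cells came from wild-type C57BL/6 mice at postnatal day 60 and the neonatal cells from wild-type C57BL/6 mice at postnatal day 5. In both cases cells carrying the O4 antigen had been selected from cortex and plated in SATO medium with forskolin and the mitogens PDGF-AA and bFGF, and 0.02% dimethyl sulfoxide was present for 48 h. Each library carries a culture letter in the labels, A to D for the adult and A to E for the neonatal cells, and is called here by age and letter (adult A, neonatal E). Letters C, D and E also supplied untreated cultures of the same medium, 2 adult and 3 neonatal, whose time in culture is not given in the sources used here. The labels speak of biological replicates but do not say that these came from separate animals, so each p-value measures only how far these cultures spread.

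OPCs divide under PDGF-AA and bFGF and give rise to the oligodendrocytes that wrap axons in myelin. They persist in the adult cortex, where they are known to divide more slowly and to differentiate more slowly than the cells of the first postnatal days. Myelin is rich in cholesterol, which oligodendrocyte-lineage cells make themselves through the sterol pathway or take up as lipoprotein, and the sterol genes share control by SREBP transcription factors. Glial progenitors also share many genes with astrocytes, so several genes named here as astrocyte markers are expressed in OPCs as well.

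The libraries held 23.6 to 33.2 M counts for the adult and 26.2 to 38 M counts for the neonatal cells, so that 1 CPM, a count scaled to a common library total, stands for at least 23.6 counts. Mitochondrial transcripts took 1.96% to 4.5% of counts. Before any age comparison the libraries differed by culture letter: Sox10, the transcription factor that sets oligodendrocyte identity, measured 160, 77.2, 314 and 342 CPM in adult A to D and 80.4, 49.1, 574, 697 and 619 CPM in neonatal A to E. Letters A and B were thus low at both ages, and with the 2 letter sets as a term Sox10 was 2.44 ± 0.39 (log2, SE) higher in letters C to E (adjusted p = 0.0416, edgeR). That term was added after the data were seen, so its p-value is not an independent test of the split. In all, 55 of 17689 genes (0.311%) differed between the letter sets. Adult A lay nearer to the neonatal libraries than the other adults did on the first principal component, at −5 against −34 to −55.6, with the neonatal libraries at 16.6 to 34.5. Xist, transcribed in female cells, was at 43.2 CPM in adult A and 47.2 CPM in neonatal D and between 364 and 1074 CPM in the other 7 libraries.

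Of 17689 genes tested, 1323 (7.48%) differed between adult and neonatal cells in DMSO at an adjusted p under 0.05: 771 (4.36%) were higher and 552 (3.12%) lower in the adult cells. The rises were larger than the falls. Among the called genes 427 were over 2-fold higher and 81 over 2-fold lower, and 84 were over 4-fold higher against 14 over 4-fold lower. In 1051 of the called genes (5.94% of those tested) every adult library lay on the same side of every neonatal library. The same held for 1857 of all 17689 genes tested (10.5%), called or not. How many genes were called depended on single libraries: the count was 3941 without adult A, but 234 without adult C, 300 without adult D, 391 without neonatal C and 495 without neonatal E. No called gene changed sign when any library was left out. Genes picked by the full fit could hardly do so, as each such fit kept all libraries but 1. Of all genes 214 (1.21%), 164 of them higher (0.927%) and 50 lower (0.283%), stayed called in all 9 fits that each left out 1 library. These 214 are called stable below, and a gene that is not among them is marked as such. The letters A and B alone, with 2 libraries an age, gave no called gene at an adjusted p under 0.05 and 898 (5.17%) at an unadjusted p under 0.05, while letters C to E alone gave 4838 (26.4%).

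**Figure D1:**
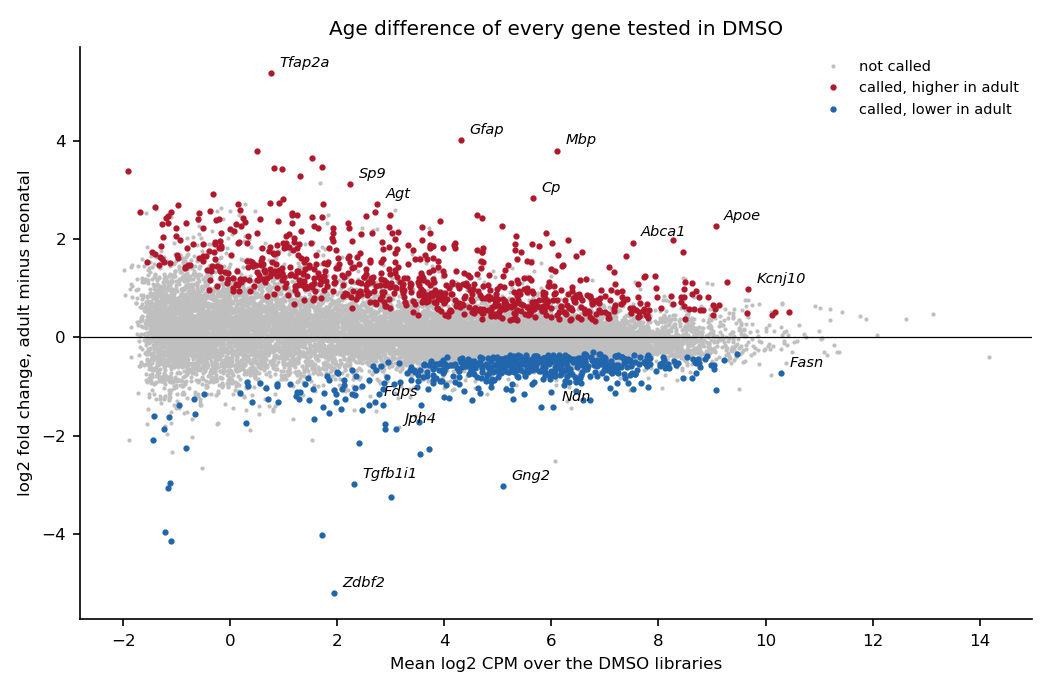
Log2 fold change (adult minus neonatal, vertical axis) of every gene tested against its mean log2 CPM over the 9 DMSO libraries (horizontal axis); red points were called higher and blue points lower in adult cells, grey points were not called. Called rises reach 5.38 (Tfap2a) and called falls −5.20 (Zdbf2), and the falls of abundant genes such as Fasn are small.

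Of 20 OPC markers tested none was called higher and 2 were called lower in the adult cells (10.0%, against 3.12% of all genes), with a median log2 difference of −0.21 against −0.00 over all genes. Olig1, a helix-loop-helix factor of the lineage, had 2076 ± 275 CPM (SD, n = 4) in adult and 2125 ± 215 CPM (SD, n = 5) in neonatal cells, a log2 difference of −0.03 ± 0.12. Its partner Olig2 had 981 ± 203 and 1157 ± 130 CPM (−0.24 ± 0.15, adjusted p = 0.327). Both genes overlapped between the ages.

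Cspg4, which encodes the NG2 proteoglycan, measured 555, 276, 337 and 177 CPM in adult A to D and 734, 567, 745, 660 and 803 CPM in neonatal A to E. The groups did not overlap, and Cspg4 was lower in adult cells by −1.06 ± 0.27 (adjusted p = 0.0381), though it was no longer called without any of 7 libraries, adult B, C and D and neonatal A, C, D and E. Nkx2-2, a homeodomain factor of the lineage, was also lower (54.2 ± 9.95 against 101 ± 23.6 CPM, log2 −0.90 ± 0.18, adjusted p = 0.0161) and was not called without adult C or adult D. Pdgfra, the receptor for the mitogen in the medium, had 1144, 365, 816 and 847 CPM among adult and 1220, 616, 1763, 1570 and 1604 CPM in the neonatal libraries. The ranges overlapped and the log2 difference of −0.77 ± 0.34 did not pass the test (adjusted p = 0.172). Sox10 showed the same overlap (−0.86 ± 0.73, adjusted p = 0.475), with its sign reversed to 0.89 in letters A and B alone. Ptprz1, a receptor phosphatase on the OPC surface, had 2473, 5496, 4126 and 5208 CPM among adult and 2911 to 3722 CPM in neonatal libraries. Its groups overlapped, and its log2 difference of 0.38 ± 0.20 did not pass the test (adjusted p = 0.253) but passed without adult A (0.57).

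Of 14 markers of committed progenitors and newly formed oligodendrocytes 1 was called higher (7.14%, against 4.36% of all genes). It was Kif21a, a kinesin, at 27.6, 42.4, 95.7 and 103 CPM in adult against 14.5 to 24.7 CPM in neonatal libraries (log2 1.9 ± 0.34, adjusted p = 0.0129, stable). Gpr17, a receptor that marks committed progenitors, ranged from 46.3 to 790 CPM among adult and from 43.2 to 2282 CPM in neonatal libraries and did not pass the test (−1.04 ± 0.89, adjusted p = 0.479). Of 20 myelin and mature oligodendrocyte genes 3 were called higher (15%, against 4.36% of all genes) and none lower.

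Mbp, the myelin basic protein gene, was the largest of these and rested on letter. Its level was 6.27, 8.99, 213 and 343 CPM in adult A to D and 4.67, 3.58, 12.6, 18.1 and 12.2 CPM in neonatal A to E. Adult C and D stood far above every other library, while adult A and B lay within the neonatal range. The log2 difference was 3.80 ± 1.02 (adjusted p = 0.0474), lost without any of 7 libraries, adult C and D and neonatal A to E, and was 4.28 in letters C to E against 0.91 in letters A and B. The long non-coding RNA Neat1 had the same shape, at 10.7, 11.3, 68.9 and 88.3 CPM among adult and 7.22 to 8.79 CPM in neonatal libraries (2.49 ± 0.56, adjusted p = 0.0257, not called without adult C or D or neonatal A, C or E). In bulk RNA, more cells of a type and more RNA per cell cannot be told apart, here and in every result that follows.

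Markers of microglia, endothelial and mural cells were sparse. Of 19 microglial markers 4 were abundant enough to test and none was called; C1qa, C1qb, C1qc, Trem2, Tyrobp, Ctss and Spi1 were at 0 in every library, and the list summed to 18.9 to 26.4 CPM among adult and 16.1 to 20.8 CPM in neonatal libraries. The endothelial list summed to 11.2 to 28.4 and 13.5 to 21.8 CPM, with Cldn5 at most at 0.0633 CPM and Cdh5 at most at 0.0307 CPM. Mural and fibroblast markers summed to 11.8 to 19.3 and 9.0 to 14.7 CPM. Neuronal markers summed to 1484 to 1673 CPM among adult and 1149 to 1431 CPM in neonatal libraries, with no overlap. Most of that sum was Map2, a microtubule protein, at 1320 ± 117 and 957 ± 108 CPM. Of 13 neuronal markers tested, 2 were called higher and 2 lower (15.4% each, against 4.36% and 3.12% of all genes). Map2 (0.46 ± 0.11, adjusted p = 0.0362) and Gad1 (1.61 ± 0.43, adjusted p = 0.0447) were higher, and the neurofilament genes Nefl (−1.26 ± 0.26, adjusted p = 0.0184) and Nefm (−0.92 ± 0.19, adjusted p = 0.0181) lower. Nefl and Nefm were lost without adult C or D, Map2 was kept only without adult A or B or neonatal B, and Gad1 only without adult A or neonatal B. The part of these genes in the other differences was not tested.

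Astrocyte markers were the group with the most members higher in adult cells: 13 of 23 tested were called higher (56.5%, against 4.36% of all genes), none was called lower, and the median log2 difference was 1.10. The sum over the list was 6879, 7895, 9668 and 8305 CPM in adult A to D and 4262, 4232, 4119, 5511 and 4527 CPM in neonatal A to E, with no overlap. Of the 13 called, 6 were stable, and the count of members called ran from 6 without adult C to 16 without adult A. Whether the list reflects astrocytes in the adult cultures or astrocyte genes within the selected cells was not tested.

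Gfap, the intermediate filament of astrocytes on chromosome 11 (chr11:102887336-102900912, GRCm38), was the most changed member. It measured 9.45, 12.6, 75.9 and 68.1 CPM in adult A to D and 0.894, 2.61, 2.41, 5.15 and 1.59 CPM in neonatal A to E. Every adult library exceeded every neonatal one, and the log2 difference was 4.01 ± 0.68 (adjusted p = 0.0108, stable), but letters C and D of the adult cells were 5 or more times above adult A and B. Agt, angiotensinogen, stood at 7.97, 12.6, 19.5 and 10.4 CPM among adult and 0.816, 2.45, 1.84, 2.40 and 2.05 CPM in the neonatal libraries. Every adult library was above 3 times the highest neonatal one, and the difference of 2.71 ± 0.33 (adjusted p = 0.00405, stable) was of like size in letters A and B (2.66) and C to E (2.84).

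Transporters and membrane proteins of astrocyte endfeet and processes moved in the same direction. Slc1a2, the glutamate transporter GLT-1, had 172, 305, 435 and 359 CPM among adult and 121 to 147 CPM in neonatal libraries (1.26 ± 0.21, adjusted p = 0.0108, stable). Mlc1, an endfoot membrane protein, had 517 ± 111 and 239 ± 37.0 CPM (1.12 ± 0.16, adjusted p = 0.00701, stable). The orphan receptor Gpr37l1 (1.34 ± 0.21, adjusted p = 0.00906) and the mitochondrial glutamate carrier Slc25a18 (0.82 ± 0.12, adjusted p = 0.00799) were stable calls as well. Kcnj10, the inward rectifier Kir4.1 found in OPCs and astrocytes alike, rose from 573 ± 57.9 CPM in neonatal to 1134 ± 133 CPM in adult cells (0.99 ± 0.12, adjusted p = 0.00368, stable). The gap junction gene Gja1 (1.19 ± 0.22, adjusted p = 0.0144) was lost without adult C, and the water channel Aqp4 (1.87 ± 0.50, adjusted p = 0.0473), at 14.6 CPM in adult A but 86.4 to 133 CPM in the other adults, was lost without any library other than adult A. Slc1a3 and Glul, the most abundant members of the list, were not called (0.69 ± 0.21, adjusted p = 0.0661, and 0.77 ± 0.30, adjusted p = 0.130).

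**Figure D2:**
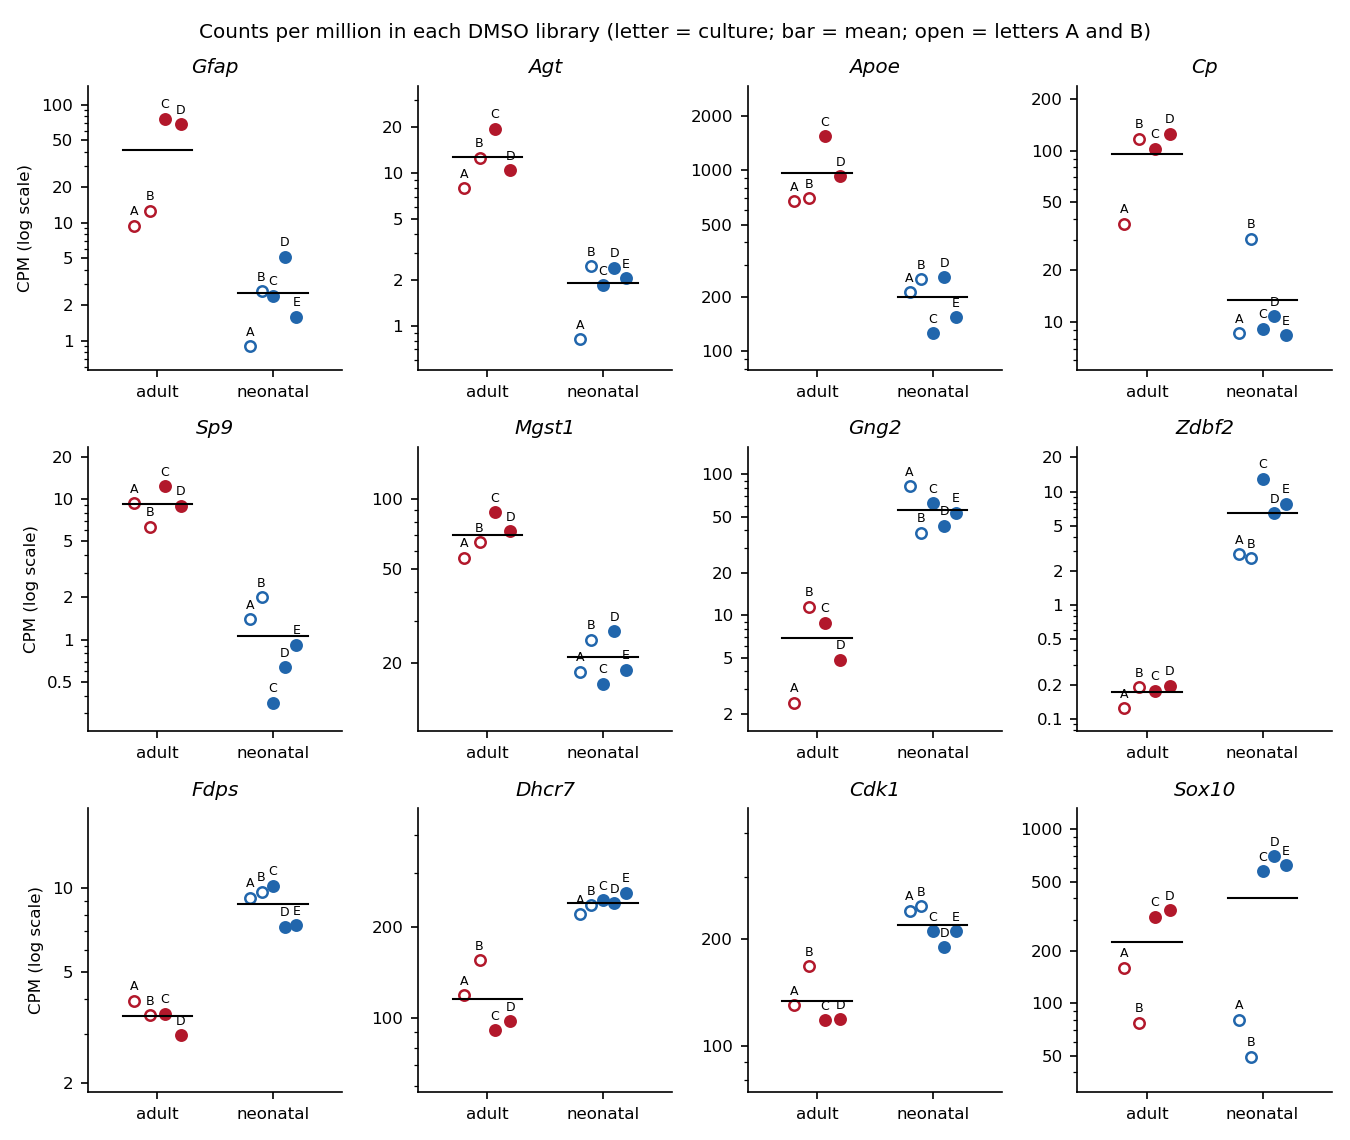
CPM (log axis) of 12 genes in each DMSO library, adult in red and neonatal in blue; letters name the cultures, open points are letters A and B, bars are group means. Adult and neonatal libraries do not overlap in any panel but that of Sox10, where letters A and B are low at both ages. Gfap, Agt, Apoe, Cp, Sp9, Mgst1, Gng2 and Fdps had been picked among genes without overlap.

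Further rises were seen in single genes, which were chosen among called genes whose groups did not overlap. Apoe, the main lipid carrier of the brain (chr7:19696109-19699188), had 675, 701, 1535 and 928 CPM in adult A to D and 211, 250, 125, 256 and 154 CPM in neonatal A to E, with no overlap and a log2 difference of 2.27 ± 0.28 (adjusted p = 0.00405, stable). Cp, ceruloplasmin, a copper-binding ferroxidase, had 37.6, 118, 103 and 126 CPM against 8.59, 30.6, 9.16, 10.8 and 8.34 CPM (2.83 ± 0.45, adjusted p = 0.00952, stable). Adult A was the lowest adult and neonatal B the highest neonatal library, and they lay next to each other. Selenop, a selenium carrier (2.13 ± 0.24), Sod3, the extracellular superoxide dismutase (2.49 ± 0.41), and Sulf1, a heparan sulfatase (2.44 ± 0.41), were stable calls with adjusted p of 0.00368, 0.0102 and 0.0108. Frem2, a basement membrane protein, was at 40.0, 38.1, 93.7 and 67.6 CPM among adult and 8.73 to 14.8 CPM in neonatal libraries (2.26 ± 0.26, adjusted p = 0.00368, stable). C1qtnf6, a secreted member of the C1q and TNF related family (1.2 ± 0.13), Adamts4, an aggrecanase (1.22 ± 0.14), and the homeobox gene Dbx2 (1.45 ± 0.16) were stable with an adjusted p of 0.00368 each. Ppfibp2, a liprin, was called too (2.48 ± 0.40, adjusted p = 0.00997, stable), with adult A at 4.04 CPM and adult B at 18.0 CPM.

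Several genes for glutathione conjugation and iron handling were higher in adult cells. Of 35 genes of the glutathione and NRF2 list 9 were called higher (25.7%, against 4.36% of all genes) and 1 lower (2.86%, against 3.12%). Of the 9, 5 were stable, and the median log2 difference of the list was 0.22. The list summed to 3032 to 3688 CPM among adult and 2353 to 2796 CPM in neonatal libraries, without overlap. The astrocyte sum was higher in the same libraries (6879 to 9668 against 4119 to 5511 CPM), and its part in this result was not tested. Mgst1, a membrane-bound glutathione transferase, had 56.1, 65.1, 87.5 and 72.8 CPM in adult A to D and 18.3, 25.1, 16.3, 27.2 and 18.7 CPM in neonatal A to E. All adult libraries were at least 2-fold above the highest neonatal library, and the log2 difference was 1.74 ± 0.18 (adjusted p = 0.00368, stable). The cytosolic transferases Gstm1 (1.66 ± 0.21, adjusted p = 0.00429), Gstt1 (1.40 ± 0.19, adjusted p = 0.00625) and Gsta4 (1.37 ± 0.25, adjusted p = 0.0129) and the peroxiredoxin Prdx6 (0.95 ± 0.16, adjusted p = 0.0109) were stable calls. Reads of Gstm1 may be shared with its close paralogs. The metallothionein Mt3 (0.60 ± 0.12, adjusted p = 0.0155) was not called without adult C. Gpx3, a secreted glutathione peroxidase, was the member that was lower (−1.05 ± 0.26, adjusted p = 0.0384), and its call held only in the fits without adult A or adult B.

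Cybrd1, a ferric reductase of the plasma membrane, was among the abundant genes with the smallest adjusted p. Its levels were 391, 632, 439 and 657 CPM among adult and 85.0, 117, 138, 187 and 146 CPM in neonatal libraries, a difference of 1.98 ± 0.23 (adjusted p = 0.00368, stable) with every adult library at least 2-fold above every neonatal one. Of 13 iron-handling genes 2 were called higher (15.4%, against 4.36% of all genes), with 9 differences positive, 4 negative and a median of 0.21. The 2 called were the ferroxidase Heph (1.71 ± 0.33, adjusted p = 0.0155, stable) and the hepcidin regulator Hfe (1.23 ± 0.25, adjusted p = 0.0191, not called without adult D or neonatal A, C or E).

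Some complement and interferon genes were higher in adult cells, mostly at low levels, in the libraries whose astrocyte sum was also higher (6879 to 9668 against 4119 to 5511 CPM, its part not tested). Of 11 complement and acute phase genes tested 5 were called higher (45.5%, against 4.36% of all genes) and none lower, with a median of 1.21. C4b, complement component 4B, had 1.03, 8.07, 9.50 and 7.38 CPM in adult A to D and 0.428, 0.757, 0.506, 0.817 and 0.398 CPM in neonatal A to E. Adult A lay just above the neonatal range and the other 3 adults about 9-fold or more above it (3.46 ± 0.52, adjusted p = 0.00820, stable). Its reads may be shared with close complement 4 copies, and these counts do not show to what extent. The protease gene C1s1 (2.59 ± 0.49, adjusted p = 0.0150) was not called without adult C, and Cd46, a complement regulator (1.21 ± 0.27, adjusted p = 0.0247), was not called without adult C or D or neonatal A or E.

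Of 27 interferon response genes 8 were called higher (29.6%, against 4.36% of all genes) and none lower, with 21 of 27 differences positive and a median of 0.58, and 2 were stable. The list summed to 157, 218, 227 and 244 CPM in adult A to D and 152 to 180 CPM in neonatal libraries, so adult A lay within the neonatal range. Ifi27, an interferon-inducible membrane protein, was at 16.6, 18.2, 23.8 and 30.1 CPM among adult and 3.99 to 8.76 CPM in neonatal libraries (1.84 ± 0.24, adjusted p = 0.00436, stable). Gbp2, an interferon-inducible GTPase, was at 2.19, 1.74, 2.77 and 3.72 CPM against 0.149 to 0.667 CPM (2.42 ± 0.38, adjusted p = 0.00900, stable). The related Gbp3 (0.86 ± 0.21, adjusted p = 0.0372) and Igtp (1.18 ± 0.31, adjusted p = 0.0424) were each lost in 5 of 9 fits, both without adult D or neonatal A, C or E, Gbp3 also without neonatal D and Igtp also without adult C. Usp18, which damps interferon signalling, was called (1.17 ± 0.26, adjusted p = 0.0248) except without adult C, adult D or neonatal C. Without adult D or neonatal C only 2 list members were called.

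The interferon-stimulated response element, searched as GAAA, any 2 bases and GAAA on either strand in the 250 bases before the RefSeq start, was in 13 of 29 promoters of list genes (44.8%) and in 2.98% of 32851 promoters. Of the 35 listed genes 24 matched the RefSeq table. Among tested genes holding the element Gbp2, Gbp3 and Igtp were called, while Bst2, Ifit3, Irgm1, Isg15, Rsad2, Stat2 and Trim30a were not. Gbp3 and Igtp are shown because both were called and hold the letters close to the start; the 100 bases before each start are written 5′ to 3′ on the gene's strand (RefSeq, GRCm38.p6), with the element in capitals, the first gene at chr3:142559944-142560043 (plus strand) and the second at chr11:58199456-58199555 (plus strand). In Gbp3 the capitals cover overlapping matches in reverse orientation. A match is a description of the letters and not of binding.
Gbp3: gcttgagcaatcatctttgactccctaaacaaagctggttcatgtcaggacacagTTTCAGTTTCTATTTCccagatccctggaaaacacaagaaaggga
Igtp: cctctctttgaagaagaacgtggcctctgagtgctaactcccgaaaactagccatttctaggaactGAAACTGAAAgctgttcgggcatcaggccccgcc

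Antigen presentation genes followed at a smaller scale, with 5 of 17 called higher (29.4%, against 4.36% of all genes), none lower and a median of 0.55. Nlrc5, the transactivator of class I genes, rose from 0.329 ± 0.0895 to 1.45 ± 0.577 CPM (2.13 ± 0.35, adjusted p = 0.0102, stable). Ciita, the class II transactivator (0.95 ± 0.22, adjusted p = 0.0309), the peptide transporter Tap1 (0.47 ± 0.13, adjusted p = 0.0486) and the class I light chain B2m (0.62 ± 0.15, adjusted p = 0.0349) were called but not stable: each was lost without adult C, without adult D, and without neonatal C or E. Ciita was lost also without neonatal A, Tap1 also without neonatal A, B or D, and B2m also without neonatal B or D.

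Cholesterol synthesis enzymes formed the group with the largest share of members lower in adult cells. Of 21 enzymes tested 14 were called lower (66.7%, against 3.12% of all genes), none higher, with 20 of 21 differences negative and a median of −0.91. Of the 14, 7 were stable, and the number called ran from 7 without adult C to 19 without adult B. The enzymes summed to 1965, 3312, 1836 and 2038 CPM in adult A to D and 3948, 4400, 3681, 3399 and 3381 CPM in neonatal A to E. Adult B came nearest to the neonatal libraries, and the groups did not overlap. The astrocyte sum moved the opposite way, from 4119 to 5511 CPM in neonatal to 6879 to 9668 CPM in adult libraries, and its part in these falls was not tested.

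The falls ran along the pathway from its first steps to its last. Acat2, which joins acetyl units into acetoacetyl-CoA, had 106, 100, 75.6 and 68.0 CPM among adult and 225, 210, 181, 162 and 173 CPM in neonatal libraries (−1.12 ± 0.16, adjusted p = 0.00629, stable). Hmgcs1, the HMG-CoA synthase, and Sqle, squalene epoxidase, did not pass the test (−0.38 ± 0.20, adjusted p = 0.254, and −0.52 ± 0.20, adjusted p = 0.121), with adult B the highest adult library at 787 and 384 CPM.

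The mevalonate kinase Mvk (−0.91 ± 0.13, adjusted p = 0.00629) and the decarboxylase Mvd (−0.94 ± 0.15, adjusted p = 0.0103) were stable calls in the middle of the pathway. Fdps, farnesyl diphosphate synthase, had 3.96, 3.51, 3.55 and 2.97 CPM in adult A to D and 9.25, 9.73, 10.2, 7.27 and 7.36 CPM in neonatal A to E (−1.32 ± 0.17, adjusted p = 0.00438, stable), all adult libraries being at or below 3.96. Its level was low for this enzyme, and reads may be shared with processed copies of the gene. The late reductases Tm7sf2 (20.4 ± 1.74 against 36.8 ± 2.46 CPM, −0.85 ± 0.10, adjusted p = 0.00405) and Dhcr7, which makes cholesterol itself, were stable as well. Dhcr7 measured 119, 155, 91.3 and 97.7 CPM among adult and 220, 235, 244, 239 and 258 CPM in neonatal libraries (−1.04 ± 0.15, adjusted p = 0.00683), with the neonatal libraries close together at a mean of 239 ± 13.8 CPM.

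The promoters of these enzymes are rich in the CCAAT box, the site of the NF-Y factor that acts with SREBP on sterol genes. The letters CCAAT, on either strand in the 250 bases before the start, were in 15 of 19 enzyme promoters (78.9%, from 16 genes matched of 22 listed) and in 33.8% of all 32851 promoters, while the sterol response element searched as TCACNCCAC was in 1 of 19 against 1.05% of all. Among genes with the box Dhcr7, Ebp, Lss, Msmo1, Mvd, Mvk, Nsdhl, Pmvk and Tm7sf2 were called, while Cyp51, Ggps1, Hmgcs1, Hsd17b7, Idi1 and Sc5d were not. Mvk and Mvd are shown as stable calls with several boxes: the 100 bases before the RefSeq start of each, with CCAAT or its reverse ATTGG in capitals, at chr5:114444169-114444268 (plus strand) and chr8:122443423-122443522 (minus strand).
Mvk: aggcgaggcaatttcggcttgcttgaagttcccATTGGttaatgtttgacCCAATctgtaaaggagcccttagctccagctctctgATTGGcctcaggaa
Mvd: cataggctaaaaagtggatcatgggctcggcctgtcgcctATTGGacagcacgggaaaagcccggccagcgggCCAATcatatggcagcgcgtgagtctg

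Genes that handle cholesterol outside its synthesis were called in both directions. Abca1, which exports cholesterol to lipoproteins, stood at 124, 291, 373 and 452 CPM among adult and 64.2 to 95.9 CPM in neonatal libraries (1.93 ± 0.29, adjusted p = 0.00831, stable). Of the 22 genes for cholesterol regulation, uptake and export, 4 were called higher (18.2%, against 4.36% of all genes) and 3 lower (13.6%, against 3.12%). The master factor Srebf2 (−0.51 ± 0.11, adjusted p = 0.0226) and the sterol carrier Stard4 (−0.88 ± 0.23, adjusted p = 0.0413) were lower, and Soat1, which esterifies cholesterol for storage, was higher (0.53 ± 0.13, adjusted p = 0.0345). These 3 calls were not stable: all were lost without adult C or D or neonatal A, C or E, and those of Stard4 and Soat1 also without neonatal B.

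Fatty acid synthesis genes were divided. Of 20 tested 4 were called lower (20.0%, against 3.12% of all genes) and 3 higher (15.0%, against 4.36%). Fasn, fatty acid synthase, had 1009, 911, 878 and 855 CPM among adult and 1249 to 1694 CPM in neonatal libraries (−0.73 ± 0.12, adjusted p = 0.00997, stable), and Acaca, the carboxylase that feeds it, had 80.0 ± 8.05 against 120 ± 6.73 CPM (−0.58 ± 0.10, adjusted p = 0.0107, stable). The citrate lyase Acly (−0.60 ± 0.10, adjusted p = 0.0117) was lost without adult C, and the acetyl-CoA synthetase Acss2 (−0.62 ± 0.12, adjusted p = 0.0169) without adult C or adult D. On the other side Thrsp, a lipogenic nuclear protein, was at 18.0, 23.5, 26.1 and 25.7 CPM in adult against 2.22 to 8.17 CPM in neonatal libraries (2.13 ± 0.32, adjusted p = 0.00820, stable). Gpam, which starts triglyceride synthesis, was higher too (0.66 ± 0.16, adjusted p = 0.0326), a call kept only without adult A or adult B.

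**Figure D3:**
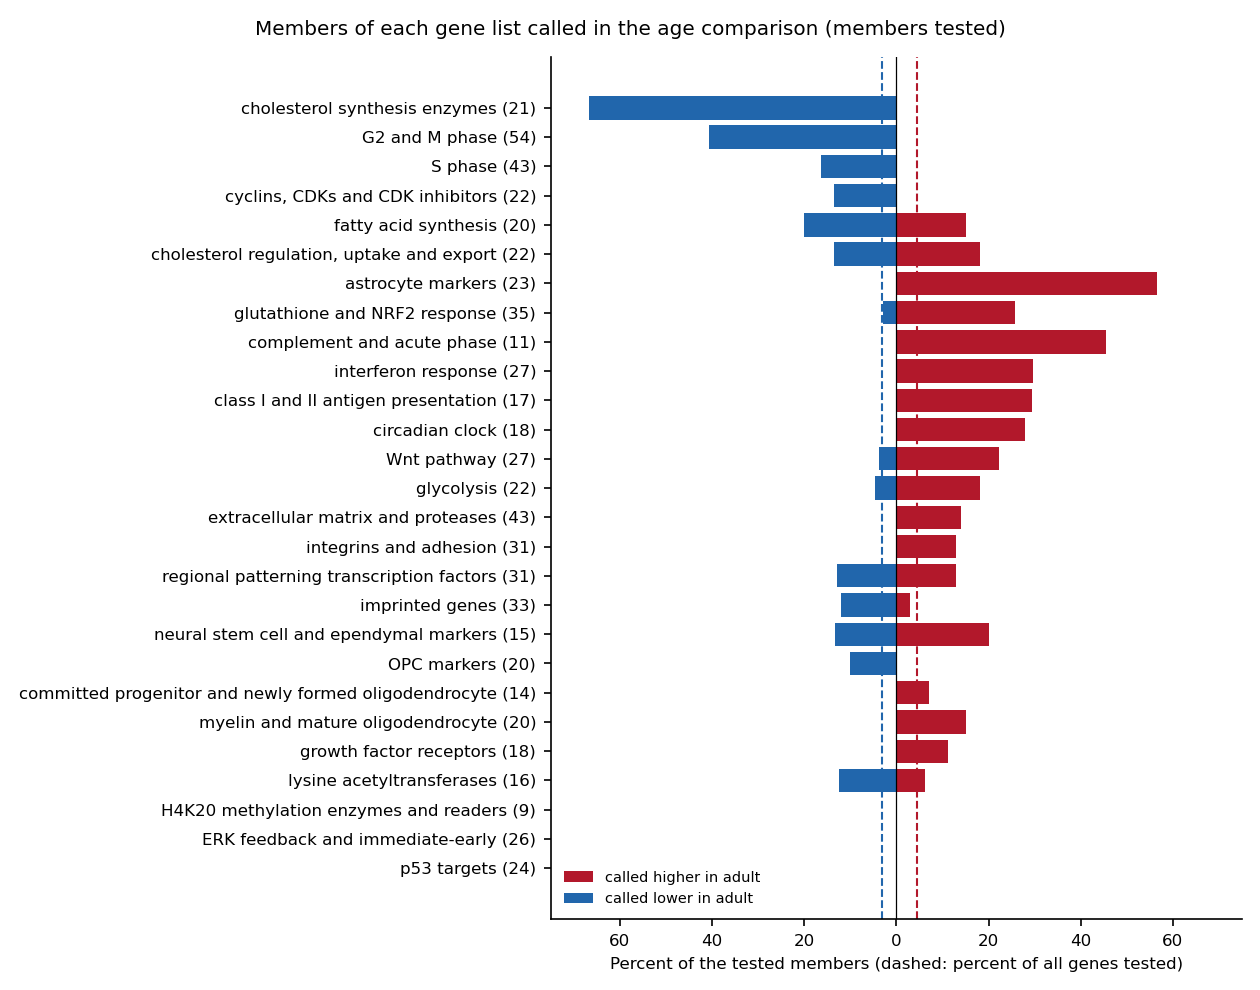
Percent of the tested members of 27 gene lists called higher (red, right) or lower (blue, left) in adult DMSO cells, with the number tested in brackets; dashed lines mark the percent over all genes, 4.36% higher and 3.12% lower. Cholesterol synthesis enzymes (66.7% lower) and astrocyte markers (56.5% higher) reach farthest on either side.

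Many genes of the cell division programme were lower in adult cells, by less than 2-fold at the median. Of 54 G2 and M phase genes 22 were called lower (40.7%, against 3.12% of all genes) and none higher, 53 of 54 differences were negative, and the median was −0.52. Of the 22, 7 were stable, and the number called was 7 without adult C, 9 without adult D and 26 without adult B. The list summed to 6405, 10358, 7079 and 8346 CPM in adult A to D and 13571, 12798, 11317, 8177 and 9252 CPM in neonatal A to E. Adult B lay above neonatal D and E, and adult D above neonatal D. Mki67, the Ki-67 proliferation antigen, ran from 371 to 1202 CPM among adult and from 634 to 1542 CPM in neonatal libraries without passing the test (−0.54 ± 0.36, adjusted p = 0.358).

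Ube2c, the ubiquitin-conjugating enzyme of the anaphase-promoting complex, had 97.6, 99.7, 86.4 and 78.6 CPM among adult and 192, 173, 160, 126 and 156 CPM in neonatal libraries (−0.83 ± 0.13, adjusted p = 0.00900, stable). Aurkb, the Aurora B kinase, had 52.6, 68.4, 49.3 and 53.5 CPM against 76.9 to 108 CPM (−0.78 ± 0.13, adjusted p = 0.0116, stable), and its chromosomal passenger partner Cdca8 had 61.0 ± 7.42 against 107 ± 12.7 CPM (−0.81 ± 0.12, adjusted p = 0.00831, stable). The spindle protein Tacc3 (−0.73 ± 0.11, adjusted p = 0.00900), the mitotic entry gene Cdca3 (−0.73 ± 0.10, adjusted p = 0.00629) and Pimreg (−0.82 ± 0.14, adjusted p = 0.0108) were stable, without overlap between the ages. Cdk1, the kinase that drives mitosis (−0.72 ± 0.13, adjusted p = 0.0131), Cdc20, the activator of the anaphase-promoting complex (−0.64 ± 0.13, adjusted p = 0.0175), and the chromatin protein Hmgb2 (−0.86 ± 0.16, adjusted p = 0.0140) are named here for their promoters, after their values were seen. All 3 were lost without adult C or adult D, and Cdc20 also without neonatal C.

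The promoters of the G2 and M phase list were searched for the CCAAT box and for the cell cycle homology region (TTTGAA), through which promoters are repressed outside G2 and M phase. TTTGAA was in 21 of 52 promoters of the list (40.4%) and 16% of all promoters, and CCAAT in 39 of 52 (75%) and 33.8% of all, from 47 genes matched of 56 listed. Among genes holding TTTGAA, Ccnb2, Cdc20, Cdk1, Cks1b, Hmgb2, Kif2c, Lbr, Ncapd2 and Ube2c were called. Anp32e, Ckap2, Ckap2l, Ckap5, Ctcf, Ect2, Kif11, Mki67, Tmpo, Top2a and Tubb4b hold it and were not called. The 100 bases before the RefSeq start of Cdk1 (chr10:69352913-69353012, minus strand), Cdc20 (chr4:118437344-118437443, minus strand) and Hmgb2 (chr8:57511743-57511842, plus strand) were chosen because they hold both, shown with either element, or the reverse ATTGG of the box, in capitals. The windows of Cdca3 and Cdca8 held the box and no TTTGAA.
Cdk1: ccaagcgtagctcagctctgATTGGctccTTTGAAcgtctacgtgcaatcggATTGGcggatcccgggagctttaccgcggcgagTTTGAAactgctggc
Cdc20: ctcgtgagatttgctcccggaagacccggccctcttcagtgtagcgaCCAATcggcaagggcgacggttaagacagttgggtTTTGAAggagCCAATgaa
Hmgb2: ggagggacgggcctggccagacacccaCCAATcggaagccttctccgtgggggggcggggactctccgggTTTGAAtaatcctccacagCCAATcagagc

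S phase genes had the same sign and weaker calls. All 43 tested had a negative difference, with a median of −0.52, but 7 were called lower (16.3%, against 3.12% of all genes), and none of these was called without adult C, adult D, or neonatal A, B, C or E. Without adult B 25 members were called. Mcm2 and Mcm5 of the replicative helicase had 124, 186, 110 and 127 and 114, 152, 96.5 and 98.6 CPM in adult A to D, and neonatal ranges of 165 to 278 and 132 to 269 CPM, so that adult B reached into the neonatal range in both (−0.75 ± 0.18, adjusted p = 0.0325, and −0.83 ± 0.20, adjusted p = 0.0329). Thymidylate synthase Tyms was called too (−0.55 ± 0.14, adjusted p = 0.0428), with adult B at 41.7 CPM above neonatal D at 39.6 CPM. The letters of E2F sites (TTTGGCGC, TTTCCCGC, TTTGGCGG or TTTCCCGG) were in 9 of 34 promoters of the list (26.5%) and 2.68% of all. Of the genes holding them Mcm5 was called, while Casp8ap2, Cdc6, Cdca7, Clspn, Dtl, Hells, Mcm6 and Pola1 were not. Among 22 cyclins, cyclin-dependent kinases and their inhibitors 3 were called lower (13.6%, against 3.12% of all genes). They were cyclin A2 (Ccna2, −0.66 ± 0.16, adjusted p = 0.0326) and the inhibitors Cdkn2c (−0.50 ± 0.12, adjusted p = 0.0338) and Cdkn2d (−0.46 ± 0.11, adjusted p = 0.0327). All were lost without the same 6 libraries, adult C and D and neonatal A, B, C and E. No p53 target of 24 and no ERK feedback or immediate-early gene of 26 was called, where 7.48% of all genes were. With so few members this does not set the 2 lists apart.

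**Figure D4:**
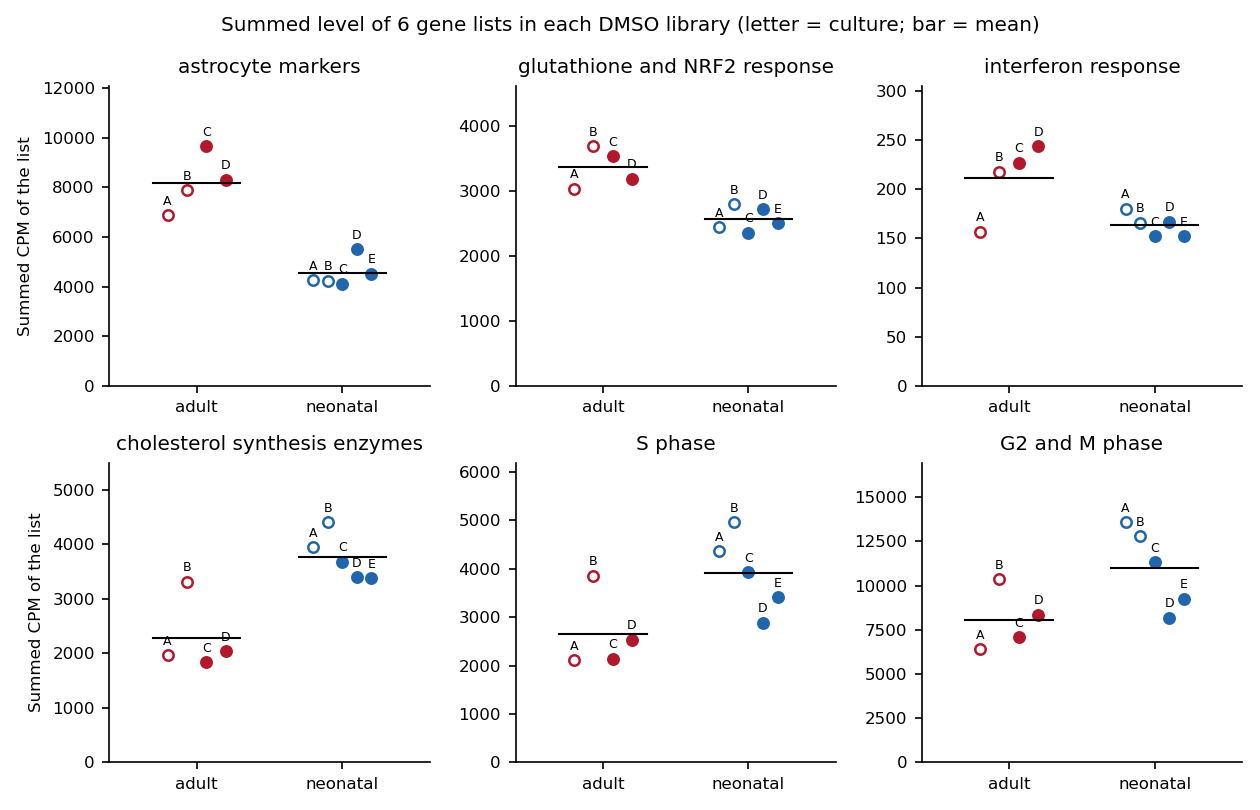
Summed CPM of 6 gene lists in each DMSO library (adult red, neonatal blue, letters name the cultures, open points are letters A and B, bars are means). Astrocyte, glutathione and cholesterol sums do not overlap between ages, while adult B lies among the neonatal libraries for both cell cycle lists and adult A does for interferon genes.

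Among transcription factors that mark brain regions, some were near 0 at 1 age only. Of 31 tested 4 were called higher (12.9%, against 4.36% of all genes) and 4 lower (12.9%, against 3.12%), and 6 of these 8 were stable. Tfap2a, a neural crest and ectodermal factor (chr13:40715302-40738376), had 5.32, 0.791, 2.91 and 5.65 CPM in adult A to D and 0.0389, 0.0909, 0.0297, 0.153 and 0.0920 CPM in neonatal A to E. The neonatal values are near the counting floor, every adult library lay above them, and the fitted log2 difference was 5.38 ± 0.62 (adjusted p = 0.00368, stable). Pax9, a paired box gene of pharyngeal and skeletal development, showed 1.99 to 3.39 CPM against 0 to 0.515 CPM (3.79 ± 0.55, adjusted p = 0.00701, stable). Isl2, a LIM homeobox gene, showed 1.65 to 6.48 CPM against 0.0892 to 0.970 CPM (3.42 ± 0.58, adjusted p = 0.0108, stable). Sp9, a zinc finger factor of ventral forebrain neurons and limb, was at 9.29, 6.33, 12.3 and 8.95 CPM among adult and 1.40, 2.0, 0.357, 0.638 and 0.920 CPM in neonatal libraries (3.12 ± 0.41, adjusted p = 0.00454, stable).

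Other members were lower in adult cells. Six3, an anterior forebrain homeobox gene, fell from 7.96 ± 1.18 to 1.8 ± 0.922 CPM (−2.15 ± 0.33, adjusted p = 0.00866, stable), and its opposite-strand transcript Six3os1 fell from 13.2 ± 3.91 to 1.38 ± 1.40 CPM (−3.25 ± 0.66, adjusted p = 0.0184, not called without adult D). The pair overlap, and without a stated strand setting their reads cannot be told apart. Gsx1, a ventral forebrain homeobox gene (−0.73 ± 0.13, adjusted p = 0.0126), was lost without adult C or D, and the nuclear receptor Nr2f2 (−0.87 ± 0.18, adjusted p = 0.0178) without adult C or D or neonatal E.

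Neural stem cell and ependymal markers split as well, 3 of 15 higher (20.0%) and 2 lower (13.3%), against 4.36% and 3.12% of all genes. Sox1 (1.10 ± 0.24, adjusted p = 0.0234), Pax6 (0.61 ± 0.13, adjusted p = 0.0233) and Foxj1, the ciliogenesis factor (1.13 ± 0.21, adjusted p = 0.0146), were higher in adult cells. Prom1, a membrane protein of stem cells (−1.76 ± 0.37, adjusted p = 0.0212), and Hopx (−1.54 ± 0.31, adjusted p = 0.0176) were lower. None of the 5 was stable: each was lost without adult C and without adult D, Sox1 and Prom1 also without neonatal A or C, and Pax6 also without neonatal C or E. The transcript Sox1ot, which overlaps Sox1, rose from 2.02 ± 0.540 to 12 ± 4.90 CPM (2.56 ± 0.31, adjusted p = 0.00405, stable).

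Zdbf2 had the largest fall of all called genes. It is an imprinted zinc finger gene on chromosome 1 (chr1:63273265-63314576) and measured 0.124, 0.190, 0.177 and 0.196 CPM in adult A to D and 2.80, 2.58, 13.0, 6.46 and 7.82 CPM in neonatal A to E. The adult libraries were all near 0 and the log2 difference was −5.20 ± 0.59 (adjusted p = 0.00368, stable). Ndn, the Prader-Willi region gene necdin, had 29.3, 37.4, 38.4 and 30.5 CPM against 85.1, 58.0, 111, 112 and 84.2 CPM (−1.41 ± 0.19, adjusted p = 0.00530, stable). Rian, a maternally expressed non-coding RNA of the Dlk1 region, had 3.16 ± 0.627 against 8.23 ± 2.32 CPM (−1.38 ± 0.24, adjusted p = 0.0122, stable). Of 33 imprinted genes tested 4 were called lower (12.1%, against 3.12% of all genes) and 1 higher (3.03%, against 4.36%). Mest was the fourth (−0.55 ± 0.11, adjusted p = 0.0163, lost without adult C or D or neonatal C), and Impact was the gene that was higher (0.69 ± 0.15, adjusted p = 0.0221, lost without adult C or D or neonatal A, C or E).

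The growth genes of fetal life that imprinting is best known for were barely expressed. Igf2 had at most 0.204 CPM in any library and was too low to test, and H19 ranged from 0 to 1.61 CPM without passing the test (−0.45 ± 0.76, adjusted p = 0.743). Of 15 fetal growth and heterochronic genes 1 was called, lower in adult cells (6.67%, against 3.12% of all genes). It was Hmga1, a chromatin architectural protein of dividing and embryonic cells, at 17.7, 17.2, 11.7 and 16.1 CPM against 23.1 to 37.7 CPM (−1.02 ± 0.17, adjusted p = 0.0102, stable).

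Further large falls were seen in single genes, which were chosen among called genes whose groups did not overlap. Gng2, a G protein gamma subunit (chr14:19872559-19977627), measured 2.39, 11.5, 8.83 and 4.83 CPM in adult A to D and 82.5, 38.6, 62.6, 43.3 and 53.4 CPM in neonatal A to E (−3.02 ± 0.41, adjusted p = 0.00529, stable). The highest adult library was thus more than 3-fold below the lowest neonatal one. Tgfb1i1, a focal adhesion protein also known as Hic-5, fell from 7.96 ± 0.997 to 1.02 ± 0.907 CPM (−2.99 ± 0.44, adjusted p = 0.00767, stable), with adult A at 2.35 CPM above the other adults. Jph4, a junctophilin that couples plasma membrane and endoplasmic reticulum, fell from 12.4 ± 1.49 to 3.41 ± 1.06 CPM (−1.86 ± 0.22, adjusted p = 0.00368, stable). The procollagen protease Adamts3 (−1.71 ± 0.22, adjusted p = 0.00436, edgeR) and the phospholipase Pla2g3 (−1.48 ± 0.17, adjusted p = 0.00368) were stable. So were the kinase Stk39, a regulator of cation chloride cotransport (−0.97 ± 0.11, adjusted p = 0.00368), and the RNA-binding protein Ybx3 (−0.74 ± 0.10, adjusted p = 0.00460).

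Of 18 growth factor receptors 2 were called higher (11.1%, against 4.36% of all genes and 11.1% of all listed genes). They were Ddr1, a collagen receptor kinase (655 ± 98.1 against 411 ± 37.5 CPM, 0.67 ± 0.12, adjusted p = 0.0124, stable), and Axl, a TAM family kinase (0.89 ± 0.20, adjusted p = 0.0248, lost without adult C or D or neonatal A, C or E). In the Notch pathway 2 of 24 genes were called higher (8.33%, against 4.36% of all genes) and 1 lower (4.17%, against 3.12%). The receptor Notch2 (0.95 ± 0.18, adjusted p = 0.0155, lost without adult C or D) and Hes6 (0.58 ± 0.13, adjusted p = 0.0232, lost without adult C or neonatal A, C or E) were higher. The ligand Jag2 was lower (−0.95 ± 0.23, adjusted p = 0.0319, kept only without adult A or adult B). The Notch target Hes5 ranged from 4.97 to 54.4 CPM among adult and 3.36 to 40.4 CPM in neonatal libraries and did not pass the test (0.34 ± 0.66, adjusted p = 0.775). Of 27 Wnt pathway genes 6 were called higher (22.2%, against 4.36% of all genes) and 1 lower (3.70%, against 3.12%). The feedback gene Axin2 had 54.7 ± 12.1 against 34.1 ± 3.63 CPM (0.68 ± 0.15, adjusted p = 0.0233, lost without adult C or D or neonatal C or E) and the secreted inhibitor Wif1 2.73 ± 1.06 against 0.761 ± 0.226 CPM (1.84 ± 0.34, adjusted p = 0.0132, lost without adult C).

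In the list of extracellular matrix and proteases 6 of 43 were higher (14%, against 4.36% of all genes) and none lower. Among them were the laminin subunits Lamc1 (443 ± 30.4 against 283 ± 34.1 CPM, 0.65 ± 0.11, adjusted p = 0.0115, stable) and Lamb2 (0.88 ± 0.18, adjusted p = 0.0206, lost without adult C or D or neonatal A or C) and the nidogen Nid2 (1.12 ± 0.22, adjusted p = 0.0155, lost without adult C). Of 31 integrins and adhesion genes 4 were higher (12.9%, against 4.36% of all genes), with Itgb5 stable (0.77 ± 0.12, adjusted p = 0.00997). Glutamate and GABA receptors had 4 of 33 higher (12.1%, against 4.36% of all genes). The GABA-A subunit Gabra4 (9.86, 21.1, 26.1 and 31.1 CPM in adult against 5.55 to 9.97 CPM in neonatal libraries, 1.62 ± 0.29, adjusted p = 0.0123) was stable, with adult A just inside the neonatal range. Gabrb1 (2.37 ± 0.46, adjusted p = 0.0159) was lost without adult C or D or neonatal C, and the NMDA subunit Grin2a (1.79 ± 0.42, adjusted p = 0.0308) without adult C or D or neonatal A, C, D or E.

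The clock and glucose lists each had a few members called. Of 18 circadian genes 5 were higher (27.8%, against 4.36% of all genes) and none lower, including the repressors Bhlhe41 (16.4 ± 3.20 against 8.24 ± 1.52 CPM, 0.99 ± 0.18, adjusted p = 0.0129, stable), Nr1d1 (0.68 ± 0.12, adjusted p = 0.0123, lost without adult C) and Cry2 (0.60 ± 0.14, adjusted p = 0.0257, lost without adult C or D or neonatal A, C or E). Of 22 glycolytic genes 4 were higher (18.2%) and 1 lower (4.55%), against 4.36% and 3.12% of all genes. The gene that was lower was Hk2, the hexokinase of growing cells, at 8.87, 13.3, 6.35 and 7.78 CPM against 16.0 to 24.0 CPM (−1.22 ± 0.21, adjusted p = 0.0117, stable).

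Inhibitors used elsewhere in the series target lysine acetyltransferases and H4K20 methyltransferases. Kat5 (TIP60) had 45.4 ± 5.82 and 52.5 ± 4.13 CPM (−0.21 ± 0.11, adjusted p = 0.252) and Ep300 had 173 ± 21.0 and 178 ± 17.9 CPM (−0.04 ± 0.11, adjusted p = 0.868). Of 16 acetyltransferases 3 were called (18.8%, against 7.48% of all genes and 19.1% of all listed genes). Kat7, which acetylates histone H3 and H4, was lower (−0.38 ± 0.09, adjusted p = 0.0285), as was Kat2a (−0.49 ± 0.13, adjusted p = 0.0465), and Kat2b was higher (0.44 ± 0.12, adjusted p = 0.050, just under the threshold). The 3 calls were not stable: Kat2a and Kat2b were kept only without adult A, and Kat7 was lost without adult C or D or neonatal A, B, C or E. The H4K20 enzymes Kmt5a (84.9 ± 21.4 against 112 ± 20.8 CPM, −0.39 ± 0.18, adjusted p = 0.179), Kmt5b (0.07 ± 0.12, adjusted p = 0.734) and Kmt5c (−0.20 ± 0.11, adjusted p = 0.269) did not pass the test. None of 18 histone deacetylases and sirtuins and none of 13 DNA methylation genes was called. Of 24 genes for H3K9 and H3K27 methylation 1 was called, lower in adult cells (4.17%, against 3.12% of all genes). It was Suv39h1, an H3K9 methyltransferase, at 58.9 ± 5.79 against 83.4 ± 6.33 CPM (−0.50 ± 0.10, adjusted p = 0.0187, lost without adult C or D or neonatal A, C or E).

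The same age comparison was made among the untreated cultures to see which differences were shared. Among untreated cultures 2952 of 17435 genes (16.9%) differed between ages. Of the 771 genes higher in adult DMSO cells 82 (10.6%, and 5.27% of the 1555 higher untreated) were also called higher and 88 were called lower in untreated adult cells. Of the 552 lower in DMSO 38 (6.88%, and 2.72% of the 1397) were also called lower and 47 were called higher. The 10.6% and 6.88% are to be read beside 1555 and 1397 of the 17435 genes. Neither lies far from the share of all genes called in that direction. By sign alone, 304 of the 771 and 171 of the 552 went the same way untreated. In the test of the difference itself, 932 of 19097 genes (4.88%) had a more positive and 937 (4.91%) a more negative age difference in DMSO than untreated, 1869 (9.79%) in all. That count rested on the 2 untreated adult libraries: it fell from 1869 to 17 without untreated adult C and to 6 without untreated adult D, and was 340 without untreated neonatal D. Letters C, D and E supplied cultures to both conditions, and the time in culture of the untreated cells is not given in the sources used here.

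Many gene lists had medians of opposite sign in the 2 conditions. The median log2 difference of the astrocyte list was 1.10 in DMSO and −0.61 untreated, that of cholesterol enzymes −0.91 and 0.53, that of S phase genes −0.52 and 0.90, and that of G2 and M phase genes −0.52 and 0.54. Other lists with opposite signs included complement genes (1.21 and −0.76), interferon genes (0.58 and −0.31), antigen presentation (0.55 and −0.21), glutathione genes (0.22 and −0.18), growth factor receptors (0.38 and −0.20), the Notch pathway (0.13 and −0.47) and cyclins and their inhibitors (−0.27 and 0.32). In the test of the difference 16 of the 23 astrocyte markers tested in DMSO were more positive there, where 4.88% of all genes were. More negative differences were called for 18 of 21 cholesterol enzymes, 26 of 43 S phase genes and 16 of 54 members of the G2 and M phase list, against 4.91% of all genes. Agt had 3.65 and 3.28 CPM in untreated adult C and D and 5.43, 8.49 and 7.72 CPM in untreated neonatal C, D and E, so it was lower in adult cells untreated (−1.08, adjusted p = 0.0305) and higher in DMSO, a difference of 3.78 (adjusted p = 0.00614). Apoe had 539 and 461 against 705, 1864 and 1268 CPM untreated, and its age difference was 3.64 more positive in DMSO (adjusted p = 0.00666). Fdps had 7.34 and 7.32 CPM in untreated adult against 4.51, 3.93 and 3.88 CPM in untreated neonatal cells, the reverse of DMSO, with a difference of −2.15 (adjusted p = 0.00154). The test of Fdps stayed called without either untreated adult library, and those of Agt and Apoe were lost without either.

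C4b (5.04, adjusted p = 0.0102), Gfap (4.61, adjusted p = 0.0375) and Frem2 (3.67, adjusted p = 0.00475) also had a more positive age difference in DMSO. C4b was lost without either untreated adult library, Frem2 without untreated adult D, and Gfap in 9 of 14 fits. Untreated neonatal cells had 10.3, 134 and 70.8 CPM of Gfap against 39.2 and 55.3 CPM in untreated adult cells, so the libraries of the untreated ages overlapped. Filip1, a filamin-interacting protein (−2.91, adjusted p = 0.0136), Liph, a phosphatidic acid lipase (−2.69, adjusted p = 7.86e-04), and Scml4, a polycomb group homolog (−2.20, adjusted p = 0.0149), had a more negative one. Filip1 and Scml4 were lost without either untreated adult library. Liph had 15.5 and 19 CPM in untreated adult against 5.13 to 6.42 CPM in untreated neonatal cells, and 4.01 ± 0.364 against 8.94 ± 1.83 CPM in DMSO.

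Several patterning, imprinted and other genes were called in the same direction in both conditions. Tfap2a had 5.55 and 7.48 CPM in untreated adult and 0.0341 to 0.0668 CPM in untreated neonatal cells (6.94, adjusted p = 0.00177). Zdbf2 was at 0.0397 and 0.126 CPM against 1.52 to 2.94 CPM (−4.73, adjusted p = 0.00970), and Ndn at 38.9 and 39.0 against 71.3 to 97.1 CPM (−1.15, adjusted p = 0.00927). Gng2 (12.7 and 8.24 against 28.3 to 36.5 CPM) and Tgfb1i1 (1.15 and 0.631 against 6.41 to 7.33 CPM) were lower, and Cp (65.3 and 68.3 against 20.8 to 29.2 CPM) and Sp9 (6.90 and 5.00 against 1.16 to 1.71 CPM) higher, in untreated adult cells as in DMSO. Mbp stood at 181 and 348 CPM against 9.69 to 30.8 CPM (3.81, adjusted p = 0.00970), close to adult C and D in DMSO. Not all members of the patterning and imprinted lists were shared. Gsx1, lower in adult DMSO cells, had 66.1 and 63.1 CPM in untreated adult against 41.8 to 52.2 CPM in untreated neonatal cells. Mest overlapped untreated (613 and 541 against 527 to 575 CPM). Of 31 patterning genes 2, and of 33 imprinted genes 3, were called for a more negative age difference in DMSO.

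**Figure D5:**
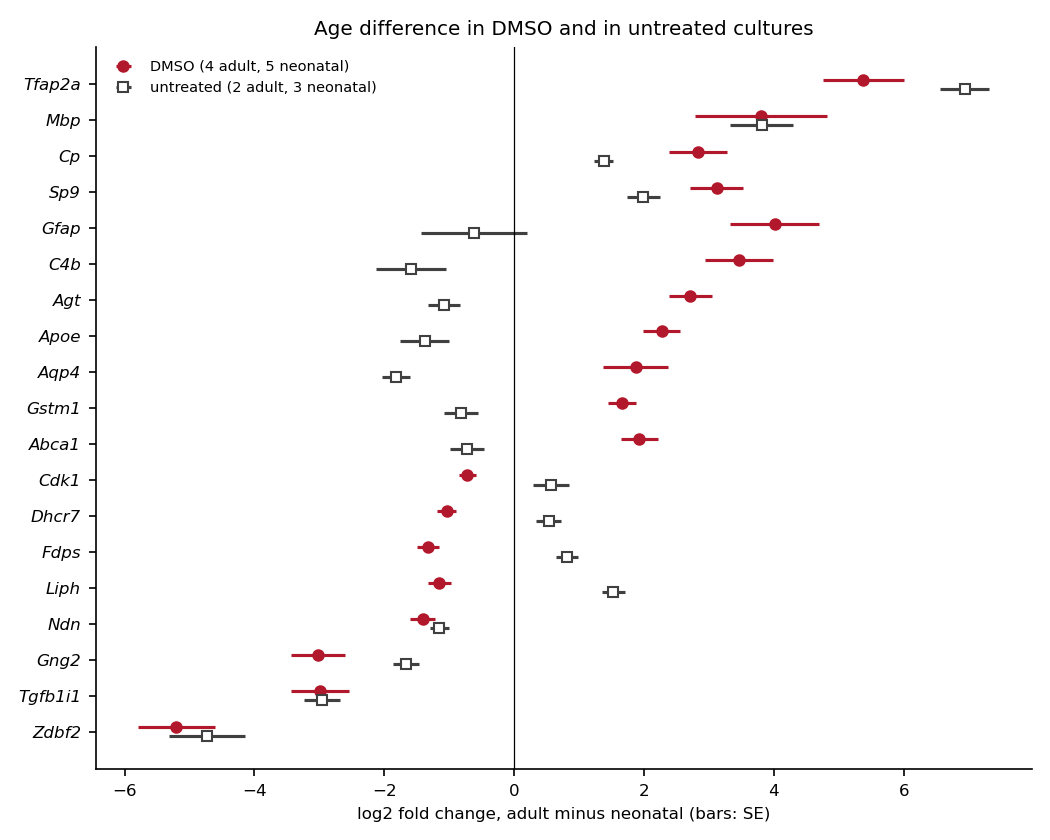
Log2 fold change (adult minus neonatal) with its SE for 19 genes in DMSO (red, 4 adult and 5 neonatal libraries) and in untreated cultures (open squares, 2 adult and 3 neonatal). The patterning gene Tfap2a and the imprinted gene Zdbf2 lie on the same side in both, whereas Agt, Apoe and Fdps lie on opposite sides of 0.

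The age difference was also fitted in the cultures given inhibitors, which carry the letters of the DMSO libraries and are not independent of them. Agt was higher in adult cells by 2.46 (adjusted p = 0.0169) with the acetyltransferase inhibitors and by 2.96 (adjusted p = 0.00246) with the SUV420 inhibitor. Fdps was lower by −1.27 (adjusted p = 0.0169) and −1.05 (adjusted p = 0.00457). Gfap differed by 3.67 (adjusted p = 0.0175) and 4.23 (adjusted p = 0.00476), and Zdbf2 by −4.49 (adjusted p = 0.0172) and −4.63 (adjusted p = 0.00205).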

How the data were processed

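RNA of cultured OPCs was sequenced, and the 9 DMSO libraries were compared by age. The deposited counts are whole reads per Ensembl gene that the authors made, with CASAVA 1.8.2, Subread, featureCounts, DESeq2 and mm10 named, without their roles, in the submitters' processing notes. Neither strand setting nor annotation release is stated there. Symbols came from GENCODE M21 (GRCm38), and 4855 identifiers without one held 2.16% of counts. The table held 56980 genes, and 17689 with 99.91% of counts passed the edgeR filter (minimum count 10). Totals were 23.6 to 38 M counts, normalised by TMM. Age was tested with the quasi-likelihood F test of edgeR 4.0.16 (R 4.3.3) and Benjamini-Hochberg adjustment at 0.05, over these 9 libraries because culture letters recur across treatments. The biological coefficient of variation was 23.4%. Columns of samples outside the series numbered 0. The test was checked on simulated counts.

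The difference between the DMSO and untreated age effects was an interaction term over 14 libraries, also in edgeR. Named genes were those with the largest changes and smallest adjusted p with no overlap between ages, the leading called and most abundant uncalled members of each list, a set of lineage and enzyme genes, and the largest interactions. Aqp4, Cdc20, Cdk1, Gja1, Hmgb2, Igtp and Xist were added after their values were seen. The comparison and its 46 gene lists were chosen with earlier results of these data known. Motifs were searched in RefSeq promoters (GRCm38.p6). Alternatives were DESeq2 1.42.0, other normalisation and filters, all 32 libraries, a replicate block, single letter sets, letter set as a term and leaving out each library. Figures used matplotlib 3.10.9. Some genes are not reported here.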

Additional observations from a re-analysis of the deposited data

Results flagged for a closer look

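Among 28 genes tested in both age groups, 56 groups in all, 1 held a library far from the others, and chance flags about 1 in 20 groups. Cp in neonatal B was 30.6 CPM against 8.34 to 10.8 CPM in the other neonatal libraries.

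The age difference itself differed between DMSO and untreated cultures for 17 of these genes, by the edgeR test of the difference. Several of them, such as Gfap, Agt, Fdps and Jph4, had been chosen for their age difference in DMSO. Over all genes tested, which were not chosen in that way, 1869 of 19097 (9.79%) had such a difference. The count of such genes over the genome fell to 17 without untreated adult C and to 6 without untreated adult D. Astrocyte genes had a more positive log2 age difference in DMSO, by 4.61 for Gfap, 3.78 for Agt, 3.68 for Aqp4 and 1.88 for Slc1a2. So did the lipid genes Apoe (3.64) and Abca1 (2.63), the complement gene C4b (5.04), the glutathione transferases Mgst1 (1.89) and Gstm1 (2.47), the ferric reductase Cybrd1 (1.69) and the interferon-inducible Gbp2 (2.27). A more negative age difference was found for the sterol genes Fdps (−2.15) and Dhcr7 (−1.59), the mitotic genes Cdk1 (−1.31) and Ube2c (−1.19), the homeobox gene Six3 (−1.82) and the junctophilin Jph4 (−1.52).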

How the results depend on the processing

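The count of 1323 called genes (771 higher, 552 lower) became 2657 (1480 and 1177) with DESeq2, 2584 (1324 and 1260) in a fit to all 32 libraries, and 4838 (2596 and 2242) in letters C to E, and was 0 in letters A and B (0 higher, 0 lower). With letter set as a term, an alternative chosen after seeing the data, it was 2223, with 1117 lower. Leaving out 1 library gave 234 to 3941 called, 176 to 1873 higher and 58 to 2068 lower. The labels do not say whether replicate numbers pair the ages. Correlations of same-numbered libraries were −0.079, 0.291, 0.051 and −0.051, and those of other pairs ran from −0.291 to 0.292. So few values cannot settle whether the samples were paired. A replicate block gave 454 calls, 274 higher and 180 lower. Without 1 library the members called were 6 to 17 for astrocyte markers (13), 7 to 19 for cholesterol enzymes (14), 7 to 26 for G2 and M phase (22), 0 to 25 for S phase (7), 2 to 14 for interferon genes (8) and 5 to 12 for glutathione genes (9), and 0 of each in letters A and B. The 17 astrocyte and 14 interferon genes each count 1 gene tested only in that fit. Letters C to E gave 21 astrocyte, 23 S phase, 16 interferon and 14 glutathione genes. The block gave 2 interferon and 5 glutathione genes, and S phase had 16 with DESeq2 and 20 with the letter term. The 1869 differences between DMSO and untreated (932 more positive, 937 more negative) became 2879 (1513 more positive) with DESeq2 and 4439 (1924 and 2515) in letters C to E, and 6 to 3288, 0 to 1687 and 6 to 1814 without 1 library. The cause of these shifts was not tested.

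Several uncalled genes changed sign. Gpr17 and Sox10 were not near 0: without 1 library they ran from −1.45 to −0.41 and from −1.14 to −0.56. Letters A and B gave 0.92 for Gpr17, 0.89 for Sox10, 0.06 for H19, −0.16 for Kmt5b and 0.06 for Olig1. A stricter filter gave 0.00 for Ep300 and 0.01 for Olig1. Leaving out 1 library gave −0.07 to 0.04 for Ep300 (0.04 without adult A, 0.02 without neonatal C), −0.77 to 0.13 for H19 (0.13 without neonatal D), −0.03 to 0.72 for Hes5 (−0.03 without adult A), and −0.11 to 0.06 for Olig1 (0.06 without adult D, 0.01 without neonatal A).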
